A study of Mus musculus with 3 samples.

Results

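The genes described here are 42 genes of DNA replication and of the passage from G1 into S phase, grouped by function and not by a threshold on their array values. Of these, 41 had at least 1 probe set annotated to a single gene, out of 12393 genes on the arrays, and together they were read by 76 probe sets. Chaf1a had none. Tyms, which encodes thymidylate synthase, had 3 probe sets, all under the detection floor on every array, so 40 members were measured. None of these 40 was under the floor at any time.

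The samples were RAW264.7 cells, a mouse macrophage line that was established from a tumour induced by Abelson leukaemia virus and that divides continuously in culture. The 3 groups were cells at 0 h, 2 h and 12 h of lipopolysaccharide (LPS), the bacterial outer membrane component that Toll-like receptor 4 recognises, with 1 array per time. The design analysed here holds untreated cells at 0 h only, so LPS and time in culture cannot be told apart in any difference from 0 h. With no replicates there is no test and no p-value. The call is a difference of at least 2-fold between 2 arrays, and only called genes are said to have risen or fallen.

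Signals are linear probe set intensities, scaled so that each array had the same trimmed mean, with a floor at a signal of 34.96. Each gene is read by its brightest probe set. The only error that the arrays hold is the disagreement of probe sets that read the same gene. Its SD on the log2 scale was 0.32 at 2 h and 0.34 at 12 h (each set against 0 h), and 0.31 between 12 h and 2 h. Among the 21 members read by several probe sets above the floor these SDs were 0.27, 0.28 and 0.37. They do not measure the error between cultures. In bulk RNA, fewer cells in S phase and less of a transcript per cell cannot be told apart.

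All 10 macrophage markers, including Csf1r, Cd68, Cd14 and Lyz2, were above the floor on every array, with summed signals of 20622 at 0 h, 21526 at 2 h and 23975 at 12 h. The 4 named markers make up most of these sums and moved less than 2-fold, while 4 others of the list, Adgre1, Itgam, Fcgr1 and Cd52, were called higher at 12 h, by 2.12- to 2.48-fold. Their part in the members' values was not tested. Of 20 markers of fibroblasts, lymphocytes, epithelium, neutrophils and erythroid cells, 12 were under the floor on all 3 arrays, and the highest signal of any was 83.2.

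DNA is copied once per cell cycle. In G1 the loading factors CDC6 and CDT1 place the ring-shaped MCM2-7 helicase on origins. Cyclin D and cyclin E kinases then inactivate the retinoblastoma protein, E2F factors switch on many of the genes for replication enzymes and deoxynucleotide synthesis, and S phase begins. Macrophages that respond to LPS are known to slow or stop dividing, and the transcripts of this programme are often used as a sign of cells in cycle. The arrays did not count such cells.

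After 2 h of LPS, 5 of the 40 measured members had fallen at least 2-fold and none had risen. They were the loading factors Cdc6 and Cdt1, the cyclin Ccne2, the single-strand binding subunit Rpa2 and the uracil-DNA glycosylase Ung. The cyclin Ccne1 lay just short of 2-fold. Over all genes measured at 2 h, 1.69% were at least 2-fold lower and 2.09% at least 2-fold higher, so 12.5% of the members stood against 1.69% in the background. The median log2 difference of the 40 members was -0.30, against -0.10 over all 8422 measured genes, and 34 of the 40 (85%) were below 0, against 62.4% of all genes. These counts depended on the scaling. With the arrays set to one median, the median over all genes moved by more than 0.1 to 0.03, genes at least 2-fold apart split into 225 higher and 73 lower in place of 176 and 142, and Cdc6 alone among the members remained 2-fold lower. The members' median relative to that of all genes was -0.20 as reported and -0.19 with median scaling. The number of members below 0 at 2 h was 25 of 40 with median scaling, in place of 34.

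After 12 h, Tk1, the thymidine kinase that salvages thymidine in S phase, was the only member called, and it was lower. That is 2.5% of the members, where 2.4% of all genes were at least 2-fold lower and 3.01% at least 2-fold higher at that time. The share called lies near the background, so the count is not a result about the members. Their median was -0.28, against -0.05 over all 8629 measured genes, and 32 of 40 were below 0 (80%, against 54.7% of all genes). With median scaling 29 of 40 were below 0. At a fold of 1.5, 8 of 40 were lower and none higher, against a background of 10.3% lower and 8.32% higher. At 2 h the same fold gave 7 lower and none higher, against 9.64% and 5.6%. The comparisons of 2 h and of 12 h with 0 h share the 0 h array, so their values are given side by side and are not 2 independent findings.

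**Figure D1:**
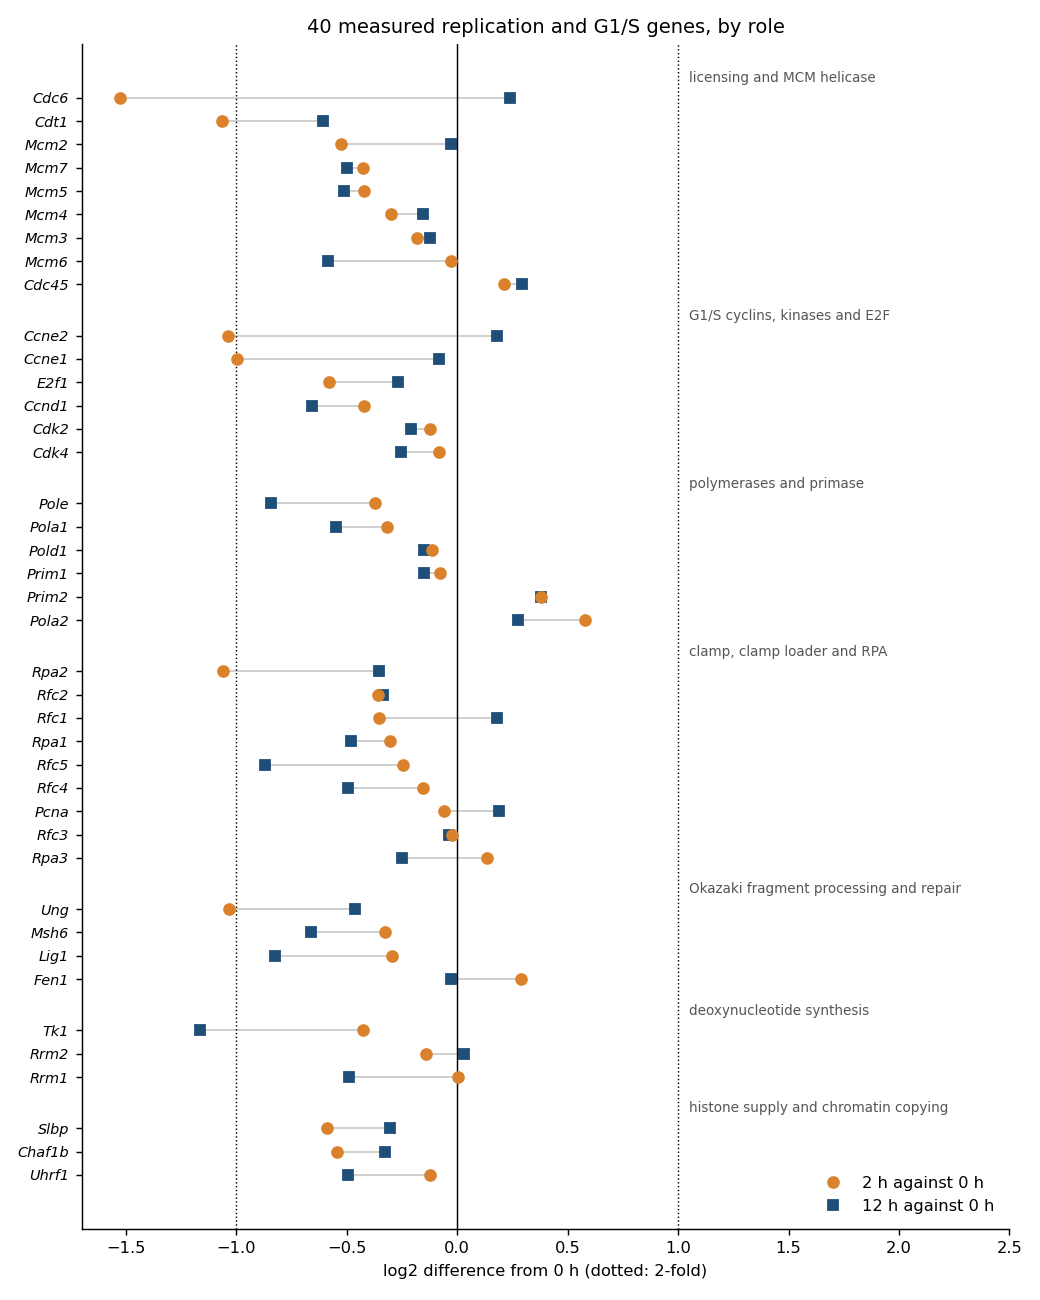
Each row is 1 of the 40 measured genes, grouped by role, and the horizontal axis is the log2 difference from 0 h. Circles stand for 2 h and squares for 12 h, each from 1 array. The circles of Cdc6, Cdt1, Ccne2, Rpa2 and Ung lie left of the dotted 2-fold line, and at 12 h only the square of Tk1 does.

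Origin licensing and the replicative helicase were read by 9 members. Cdc6, the ATPase that loads the helicase on origins, had signals of 136, 47.3 and 161 at 0, 2 and 12 h. It was 2.88-fold lower at 2 h than at 0 h, the 20th lowest of the 8422 log2 differences at that time. At 12 h it was 3.4-fold higher than at 2 h and differed from 0 h by 0.24 on the log2 scale. The 2 h value lay close to the floor, and a higher floor, at the 60th percentile, gave log2 differences of -0.68 at 2 h and of 0.93 for 12 h against 2 h, so that both calls were lost.

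Cdt1, the partner of CDC6 in loading, had signals of 1386, 663 and 911, and was 2.09-fold lower at 2 h. Its second probe set above the floor read 628, 578 and 592, a log2 difference of -0.12 at 2 h, so the call for Cdt1 rests on 1 probe set. The 6 subunits of the MCM2-7 ring moved less than 2-fold at both times. At 2 h their log2 differences ran from -0.53 for Mcm2 to -0.03 for Mcm6, all below 0, but with median scaling Mcm6 was at 0.11.

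Mcm2 read 611, 425 and 599 on its brightest probe set and 587, 384 and 405 on the other. Both were low at 2 h, but the 12 h log2 differences were -0.03 and -0.54, so whether Mcm2 regained its 0 h signal is uncertain. Mcm5 read 752, 561 and 528, and Mcm7, which sits in the same ring, read 1578, 1174 and 1115. The log2 differences of the other probe sets of Mcm7 from 0 h lay below 0 at both times too, from -0.25 to -0.11 at 2 h and from -0.31 to -0.10 at 12 h, and did not share an order of 2 h and 12 h. Mcm6 read 825, 808 and 549, a log2 difference of -0.59 at 12 h, and 528, 449 and 405 on its other probe set, lowest at 12 h on each. Mcm3 (861, 759 and 791) and Mcm4 (804, 653 and 722) had log2 differences from 0 h of -0.30 to -0.12. Cdc45, which joins the ring to make the active helicase, read 151, 175 and 185, above its 0 h signal on both later arrays by less than the spread between probe sets. The log2 differences of the other probe sets of Mcm3 ranged from -0.44 to 0.12 at 2 h and from -0.36 to 0.76 at 12 h, so the arrays do not settle which time was lowest for Mcm3 or Mcm7.

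Of the 8 of these 9 genes with a promoter sequence, 6 carried letters of the E2F type (75%, the highest share of the 7 role groups), and promoters are shown here because E2F factors are the textbook regulators of the group. Promoter windows (250 bases before to 50 after the annotated start, RefSeq, GRCm38.p6) were found for 36 of the 42 genes. The genes with no window were Mcm4, Ccnd1, Ccne2, Pole, Prim2 and Rfc2. Both strands were searched for TTTCCCGC, TTTCGCGC, TTTGCCGC and TTTGGCGC. At least 1 match lay in 13 of the 36 genes (36.1%), against 4.07% of 9888 genes on the arrays and 2.61% of all 27025 genes in the table. The 13 were Mcm3, Mcm5, Mcm6, Mcm7, Cdc6, Cdt1, Cdk2, Pola1, Pold1, Rfc3, Lig1, Msh6 and Uhrf1. The 250 bases before the start are printed 5′ to 3′ on the gene's strand, with E2F-type matches in capitals, for 5 genes with a match there and for Rpa2, Ung and Tk1, which were called on the arrays and have none.
Cdc6 (chr11:98907901-98908150, plus strand): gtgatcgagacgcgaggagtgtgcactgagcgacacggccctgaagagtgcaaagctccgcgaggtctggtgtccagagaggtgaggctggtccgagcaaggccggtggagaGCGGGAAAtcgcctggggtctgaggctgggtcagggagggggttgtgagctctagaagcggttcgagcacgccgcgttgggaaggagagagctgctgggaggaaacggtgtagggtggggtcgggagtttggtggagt
Mcm5 (chr8:75109259-75109508, plus strand): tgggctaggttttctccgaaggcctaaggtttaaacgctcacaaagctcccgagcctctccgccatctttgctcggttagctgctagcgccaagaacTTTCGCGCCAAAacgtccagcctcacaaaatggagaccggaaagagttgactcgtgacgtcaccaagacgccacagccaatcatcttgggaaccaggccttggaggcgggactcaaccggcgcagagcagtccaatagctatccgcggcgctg
Mcm6 (chr1:128359706-128359955, minus strand): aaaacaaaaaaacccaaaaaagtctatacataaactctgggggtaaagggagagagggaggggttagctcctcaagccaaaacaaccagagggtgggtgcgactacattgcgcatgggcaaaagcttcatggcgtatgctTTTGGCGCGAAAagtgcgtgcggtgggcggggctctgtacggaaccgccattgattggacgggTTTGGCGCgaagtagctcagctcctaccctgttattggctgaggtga
Mcm7 (chr5:138171884-138172133, minus strand): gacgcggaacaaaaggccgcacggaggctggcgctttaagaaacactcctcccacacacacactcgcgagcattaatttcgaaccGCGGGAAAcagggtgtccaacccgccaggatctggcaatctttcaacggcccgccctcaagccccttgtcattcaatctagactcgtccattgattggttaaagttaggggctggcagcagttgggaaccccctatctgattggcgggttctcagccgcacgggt
Rfc3 (chr5:151651209-151651458, minus strand): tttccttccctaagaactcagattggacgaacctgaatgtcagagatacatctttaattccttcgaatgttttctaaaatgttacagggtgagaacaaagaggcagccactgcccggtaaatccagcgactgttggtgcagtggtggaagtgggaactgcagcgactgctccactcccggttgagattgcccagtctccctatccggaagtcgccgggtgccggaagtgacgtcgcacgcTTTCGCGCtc
Rpa2 (chr4:132768110-132768359, plus strand): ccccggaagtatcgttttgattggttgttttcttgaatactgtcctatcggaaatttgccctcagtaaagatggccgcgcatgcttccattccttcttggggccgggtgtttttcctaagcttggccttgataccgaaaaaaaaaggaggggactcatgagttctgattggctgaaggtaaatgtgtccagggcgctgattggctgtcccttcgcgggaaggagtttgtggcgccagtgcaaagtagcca
Ung (chr5:114130185-114130434, plus strand): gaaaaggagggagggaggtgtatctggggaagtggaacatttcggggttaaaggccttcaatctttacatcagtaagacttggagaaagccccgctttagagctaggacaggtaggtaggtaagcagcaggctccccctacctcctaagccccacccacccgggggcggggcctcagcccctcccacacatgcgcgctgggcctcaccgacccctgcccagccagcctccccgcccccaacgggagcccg
Tk1 (chr11:117826015-117826264, minus strand): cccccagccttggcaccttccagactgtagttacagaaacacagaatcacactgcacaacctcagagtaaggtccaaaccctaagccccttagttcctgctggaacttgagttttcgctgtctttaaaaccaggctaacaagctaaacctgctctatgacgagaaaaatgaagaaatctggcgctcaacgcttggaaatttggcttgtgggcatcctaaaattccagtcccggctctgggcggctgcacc
In Mcm5 and in the upstream run of Mcm6, matches on opposite strands overlap, so that 12 bases hold 2 of them. The match in Cdc6 lies at -138 to -131 from the start. Mcm7 and Rfc3 have a further match past the start, which is not printed. The match of Cdt1 lies wholly past it, at 33 to 40, and all matches of Mcm3, Lig1, Pold1 and Msh6 lie past it too. Cdk2, Pola1 and Uhrf1 have a match before the start that is not printed. A match is a description of letters, and its absence says only that these letters are not in this window.

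Members with and without a match had like medians at 2 h, and at 12 h the median was lower with a match, a difference that was not tested. The 13 measured members with a match had a median log2 difference of -0.29 at 2 h, and 2 of them were called lower. The 21 measured members without one had a median of -0.25, and 2 of them were called lower. At 12 h the medians were -0.50 with a match and -0.26 without, with lowest values of -0.82 and -1.16. CCAAT, the letters bound by the factor NF-Y, lay in 58.3% of the members' genes against 42.3% of genes on the arrays. TTTGAA, the core of the cell cycle homology region (CHR) known from mitotic genes, lay in 3 of 36 members (8.33%), against 15.4% of genes on the arrays. Among 17 mitosis and G2/M genes the same search gave no E2F-type match, 14 with CCAAT and 10 with TTTGAA (58.8%). The windows differ in base composition, with a median GC content of 63.3% for the members, 59.8% for the mitotic genes and 59% for genes on the arrays, and its part in these shares was not tested.

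**Figure D2:**
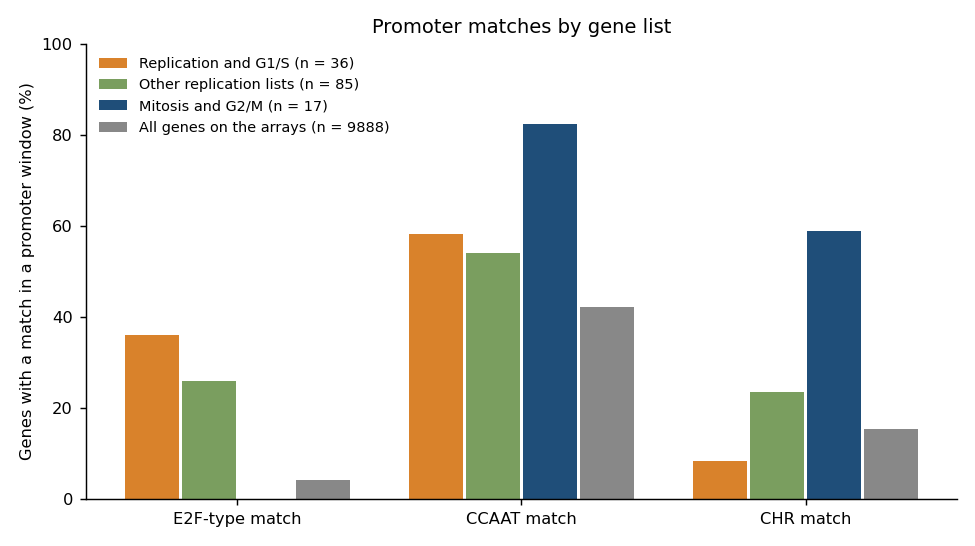
Bars give the percentage of genes with at least 1 match in a promoter window, on an axis from 0 to 100, for the members, 7 other replication lists together, the mitosis and G2/M list and all genes on the arrays. E2F-type matches lie in 36.1% of the members and in none of the 17 mitotic genes, and CHR letters in 8.33% and 58.8%.

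The G1/S regulators were read by 6 members. On their brightest probe sets the 2 h log2 differences were all below 0, with a median of -0.50. With median scaling Cdk2 and Cdk4 were just above 0 at 2 h, at 0.02 and 0.06. Ccne2, 1 of 2 genes for cyclin E, the partner of CDK2 at the start of S phase, had signals of 241, 118 and 273. It was 2.05-fold lower at 2 h than at 0 h and 2.32-fold higher at 12 h than at 2 h. Ccne1, the other cyclin E gene, read 145, 72.8 and 137. Both cyclin E genes were thus low on the 2 h array and within 0.18 of their 0 h level on the log2 scale at 12 h. Ccne1 had a log2 difference of -0.997 at 2 h and 0.91 for 12 h against 2 h, each just under the call.

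E2f1, the founding E2F activator, read 164, 110 and 136, and its second probe set read 60.6, 62 and 44.7, with no low signal at 2 h. Ccnd1, cyclin D1, whose level follows growth factor signals, read 1379, 1030 and 876 on its brightest probe set. A second probe set read 1235, 579 and 1204, and a further one 495, 346 and 363. At 2 h they gave log2 differences of -0.42, -1.09 and -0.52, all below 0. At 12 h they gave -0.66, -0.04 and -0.45, so the size of the 12 h difference of Ccnd1 is uncertain. The kinase genes differed least from 0 h in this group at 2 h, but not at 12 h. Cdk2 read 284, 261 and 246 and Cdk4, the partner of cyclin D, read 901, 852 and 755, with log2 differences between -0.26 and -0.08. The other probe sets of Cdk4 gave 0.14 and -0.15 at 2 h and 0.15 and -0.04 at 12 h, so its direction is uncertain.

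**Figure D3:**
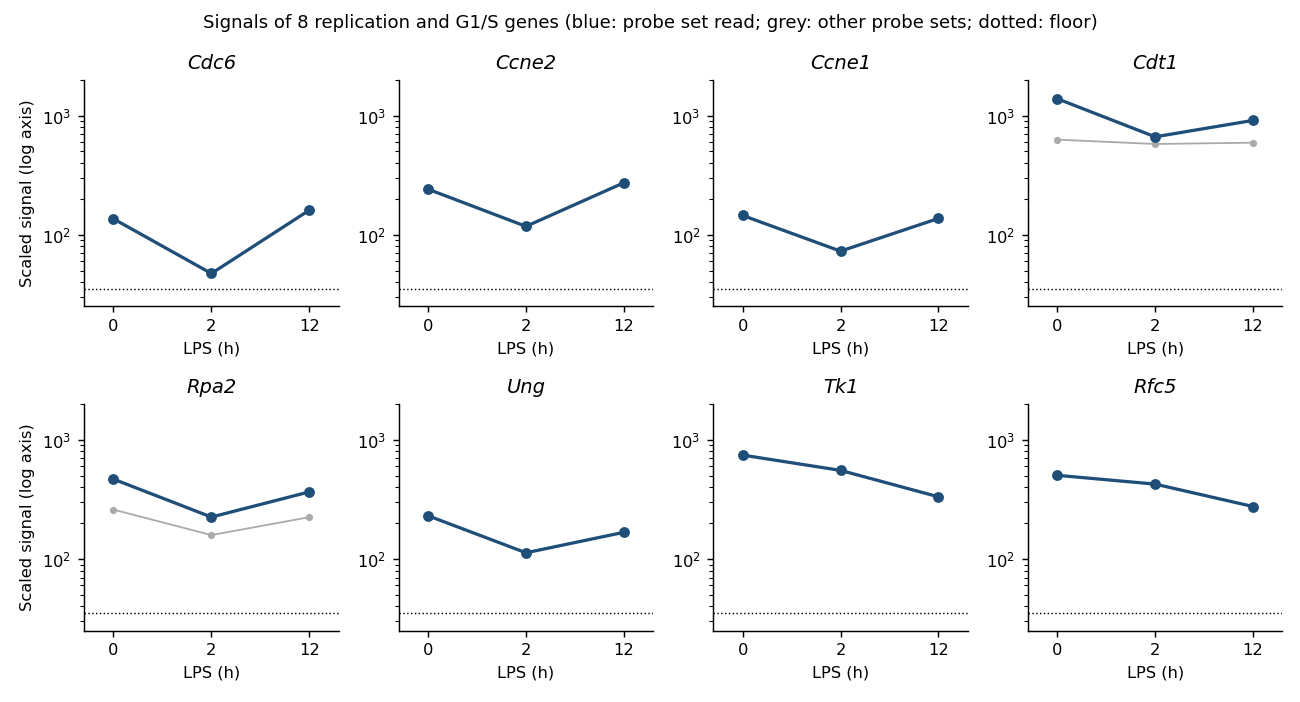
Each panel plots the scaled signal of 1 gene (log axis) at 0, 2 and 12 h of LPS, with 1 array per time. Blue is the probe set read, grey any other probe set above the floor, and the dotted line is the floor. Cdc6, Ccne2 and Ccne1 are lowest at 2 h and near their 0 h signals at 12 h, while Tk1 and Rfc5 are lowest at 12 h.

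No polymerase or primase gene was called at either time. Pole, the catalytic subunit of the leading-strand polymerase epsilon, read 188, 145 and 105, a log2 difference of -0.84 at 12 h. Pola1, the catalytic subunit of polymerase alpha, which starts each new strand, read 189, 152 and 129, in the same order. Its accessory subunit Pola2 read 110, 165 and 134, with the highest log2 difference of any member at 2 h, 0.58. Subunits of the same complex therefore stood on opposite sides of 0.

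Pold1, of the lagging-strand polymerase delta, read 414, 382 and 373, and the primase subunit Prim1 read 354, 335 and 319, both close to their 0 h signals. The other probe set of Prim1 gave log2 differences of -0.32 at 2 h and 0.13 at 12 h, so its 12 h direction is uncertain. Prim2, the large primase subunit, read 146, 190 and 189 on its brightest probe set and 168, 131 and 136 on the other. The 2 probe sets of Prim2 point in opposite directions at both times, so no direction is given for it.

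The sliding clamp, its loader and the single-strand binding protein RPA were read by 9 members. Rpa2, the middle subunit of RPA, had signals of 469, 225 and 366 and was 2.08-fold lower at 2 h. Its other probe set read 260, 159 and 225, a log2 difference of -0.71 at 2 h, in the same direction but under 2-fold. The large subunit Rpa1 read 1852, 1500 and 1329, and the small subunit Rpa3 read 252, 276 and 212. The 3 subunits of RPA differed in their 2 h log2 differences, at -0.30 for Rpa1, -1.06 for Rpa2 and 0.13 for Rpa3.

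Pcna, the clamp that holds polymerases on DNA, read 3034, 2913 and 3455 and lay within 0.19 of its 0 h level at both times on the log2 scale. Of the 5 clamp loader genes, Rfc5 had the lowest 12 h value, with signals of 505, 426 and 276 and a log2 difference of -0.87. Rfc4 read 256, 230 and 182, and Rfc2 read 475, 371 and 376. Rfc4 and Rfc5 were thus lowest at 12 h, whereas Rfc2 was equally low on both later arrays. Rfc3 read 212, 209 and 207 on its brightest probe set, with a log2 difference of -0.63 at 2 h on the other. Rfc1, the large subunit, read 224, 175 and 254. At 12 h its other probe sets gave log2 differences of -0.59 and -0.41, against 0.18 for the brightest, so its 12 h direction is uncertain.

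Of the 4 genes for Okazaki fragment processing and repair of new DNA, Ung was the one called. Ung, which removes uracil from DNA, had signals of 231, 113 and 168 and was 2.05-fold lower at 2 h, with 12 h in between. Lig1, the ligase that joins Okazaki fragments, read 512, 418 and 289, and Msh6, a mismatch recognition subunit, read 339, 271 and 214. Both were lowest at 12 h, with log2 differences of -0.82 and -0.66. Fen1, the flap nuclease that trims Okazaki fragments, read 566, 691 and 554 on its brightest probe set and 561, 398 and 477 on the other. Its direction at 2 h is therefore uncertain.

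Deoxynucleotide synthesis was read by 3 measured members. Tk1 had signals of 746, 555 and 333, so that each later array was lower than the one before, and it was 2.24-fold lower at 12 h than at 0 h. It kept at least 2-fold in all 8 other settings of scaling, floor and probe set in which it was read. Rrm1, the large subunit of ribonucleotide reductase, read 1046, 1050 and 744, and the small subunit Rrm2, whose level limits the enzyme in S phase, read 1436, 1301 and 1466. At 12 h the log2 differences were -0.49 for Rrm1 and 0.03 for Rrm2, while the 2 other probe sets of Rrm2 gave -0.36 and -0.10. Tyms signals on its brightest probe set were 13.7, 10.9 and 21.8, under the floor, and give no fold.

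Histone supply and the copying of chromatin were read by 3 members, all below 0 at both times, although with median scaling Uhrf1 was at 0.02 at 2 h. Slbp, which binds the stem-loop of histone mRNA, read 578, 384 and 469, a log2 difference of -0.59 at 2 h. Chaf1b, a subunit of the histone chaperone CAF-1, read 167, 115 and 134. In both, 12 h lay between 2 h and 0 h. Uhrf1, which guides DNA methylation to newly copied strands, read 475, 435 and 337 on its brightest probe set and 284, 205 and 154 on the other, lowest at 12 h on each.

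For 12 h against 2 h, Cdc6 and Ccne2 were the members called, both higher, and none was lower. That is 5% of the members, against 2.65% of all 8467 measured genes at least 2-fold higher and 1.98% at least 2-fold lower. The comparisons of 2 h with 0 h and of 12 h with 2 h share the 2 h array. Cdc6 and Ccne2 were called in each, so these calls are not independent findings. With median scaling all genes split into 178 higher and 226 lower in place of 224 and 168, and the number of members called was again 2. At a fold of 1.5, Ccne1 at 0.91 and Rpa2 at 0.70 joined the higher genes, and Tk1 at -0.74 and Rfc5 at -0.63 were lower, where the background was 10.2% higher and 6.45% lower. The median over the members was -0.05 (0.02 with the median over probe sets), against 0.05 over all genes. The medians of the role groups, of 3 to 9 genes each, lay on both sides of 0, a difference that was not tested. Licensing genes had a median of 0.08, G1/S regulators 0.11 and histone supply genes 0.22. The clamp, its loader and RPA had -0.01, polymerases and primase -0.15, Okazaki processing and repair genes -0.33 and deoxynucleotide synthesis genes -0.50. All but the last were smaller in size than the SD of 0.37 between probe sets of a member.

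**Figure D4:**
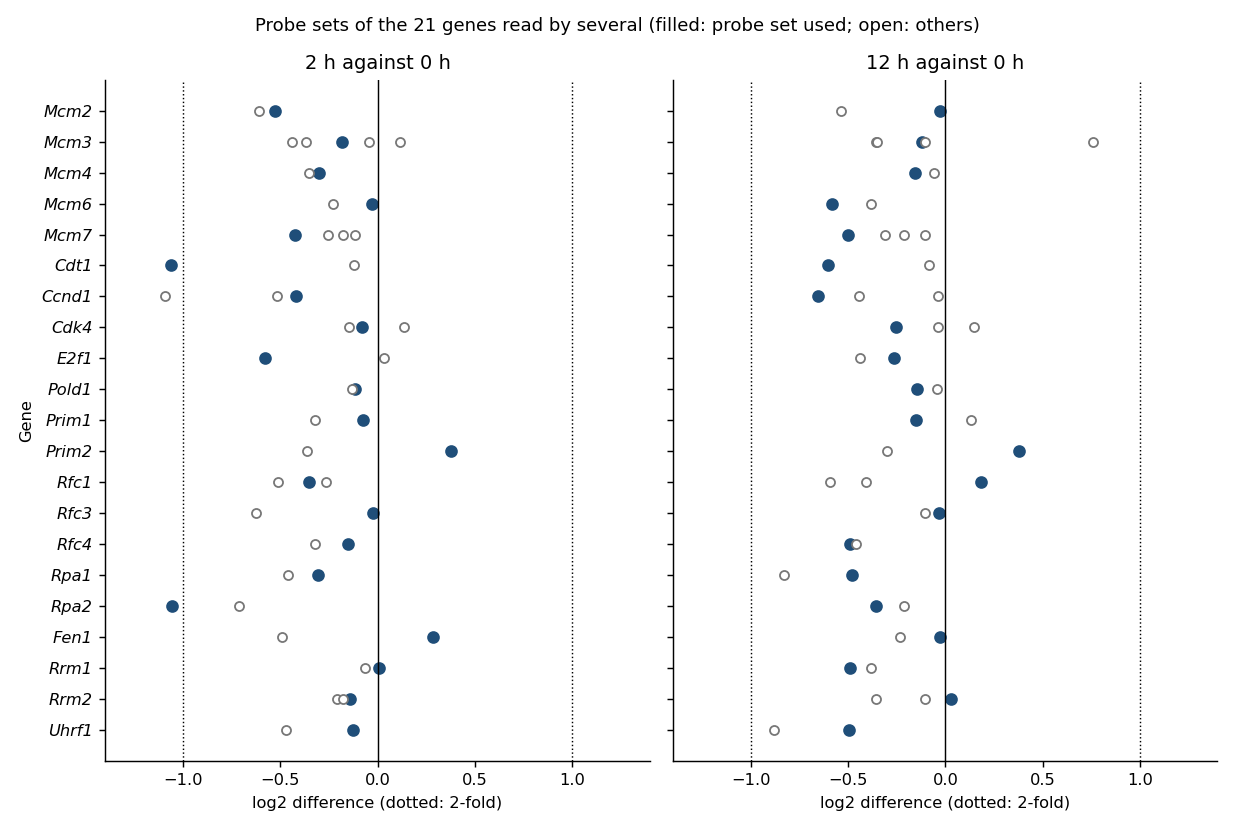
Each row is 1 of the 21 members with several probe sets above the floor, and each point is the log2 difference of 1 probe set at 2 h (left) or 12 h (right) against 0 h. Filled points are the probe sets read and open points the others. The probe sets of Prim2 lie on opposite sides of 0 in both panels, and those of Cdt1 lie 0.94 apart at 2 h.

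Against 0 h, probe sets of one member mostly pointed the same way, and between 12 h and 2 h they mostly did not. Of the 21 members with several measured probe sets, 15 had all of them below 0 at 2 h and 15 had all below 0 at 12 h, and the other 6 were mixed at each time. For 12 h against 2 h, 9 had all probe sets on one side of 0 and 12 were mixed. Counting every measured probe set of a member alone, 61 of 70 were below 0 at 2 h and 59 of 70 at 12 h. For 12 h against 2 h, 34 of 70 were below 0. These are 87.1%, 84.3% and 48.6% of the probe sets. Of all genes, each read by 1 probe set, 62.4%, 54.7% and 44.2% were below 0 in the same comparisons. The share over all probe sets is not given here, and signs at 2 h depend on the scaling.

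Other genes of the same pathway were read from 7 lists with 90 genes on the arrays, 87 of them measured. At 2 h their median was -0.30 on the log2 scale, with 3 genes called lower (3.45%, against 1.69% of all genes) and 2 higher (2.3%, against 2.09%). Orc5, a subunit of the origin recognition complex, was 2.41-fold lower (70.8 at 2 h against 171 at 0 h), the kinase gene Wee1 2.11-fold lower and the CDK4/6 inhibitor gene Cdkn2d 2.08-fold lower. Wee1 and Cdkn2d lay just beyond 2-fold. The calls of these lists were not repeated with median scaling, under which 0.87% of all genes were at least 2-fold lower at 2 h. Myc was 11.1-fold higher and Cdkn1a, the p21 inhibitor of cyclin E kinase, 2.23-fold higher (1325 against 596). All 14 measured genes of origin recognition and firing were below the median of all genes at 2 h, and their median was -0.44. Orc5 was 2.44-fold higher at 12 h than at 2 h.

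At 12 h, 4 of the 87 were called lower (4.6%, against 2.4% of all genes) and 2 higher (2.3%, against 3.01%), with a median of -0.27. The shares called higher at both times lie near the background. Lower were the CDK inhibitor gene Cdkn2c by 2.32-fold, the polymerase delta subunit gene Pold3 by 2.29-fold, the heterochromatin protein gene Cbx5 by 2.02-fold and the mismatch repair gene Pms2 by 2.02-fold. Higher were Myc, by 9.02-fold (533 against 59.1), and E2f3, an E2F activator, by 2.11-fold (89.8 against 42.6). Against 2 h, the dNTP hydrolase gene Samhd1 was 2.28-fold and the exonuclease gene Exo1 2.04-fold higher at 12 h, and Cdkn1a 2.08-fold and the retinoblastoma gene Rb1 2.04-fold lower. With Orc5, 3.45% of the 87 were called higher and 2.3% lower, near the 2.65% and 1.98% of all genes. The signals of Rb1 at 12 h (52.1) and E2f3 at 0 h (42.6) lay near the floor of 34.96.

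Mitosis and G2/M genes, the neighbouring part of the cycle, had another time course in these arrays. At 2 h the 19 measured genes had a median of -0.25, with none called, close to the -0.30 of the replication and G1/S genes. At 12 h their median was -0.92 with 8 of 19 called lower (42.1%). The replication and G1/S genes had a median of -0.28 with 1 of 40 called lower (2.5%), a share near that of all genes. Over all genes the median was -0.05 and 2.4% were at least 2-fold lower. Ccnb2, the mitotic cyclin B2, was 3.91-fold lower at 12 h, and its signals were 776, 708 and 199 at 0, 2 and 12 h. Cdc25c, the phosphatase that activates the mitotic kinase, was under the floor at 12 h and at least 2.2-fold lower. With 1 array per time the difference between the 2 lists was not tested.

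**Figure D5:**
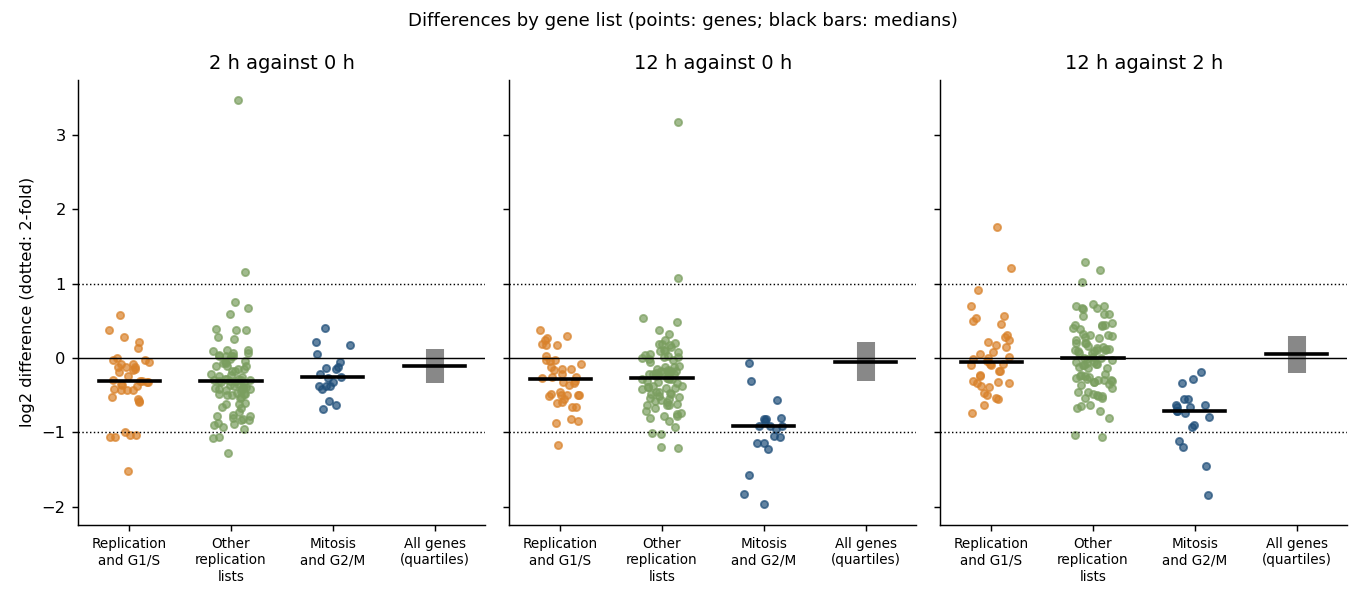
Points are genes and black bars medians of the log2 difference in each of the 3 comparisons, for the members, the 7 other replication lists together and the mitosis and G2/M list, and grey bars span the quartiles of all measured genes. At 2 h the 3 lists have medians of -0.30, -0.30 and -0.25. At 12 h against 0 h the mitotic genes lie at -0.92, below the members at -0.28.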

How the data were processed

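RNA from RAW264.7 cells at 0, 2 and 12 h of LPS was measured on 1 array per time. Per the labels' protocols, targets were made from 5 µg of total RNA by a modified Affymetrix procedure. The authors deposited linear intensity values for 22690 probe sets, with no software or normalization named in any source used here. The 2% trimmed mean of the deposited values was 150.05 at 0 h and the same at the other times to within rounding, so the arrays had been scaled before deposit.

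Probe sets with 1 gene in the platform annotation (20393) were named through a RefSeq table of GRCm38.p6, where 20364 matched, which gave 12393 genes. The 691 probe sets with several genes and the 1606 not listed were not used. Arrays were rescaled to one 2% trimmed mean without controls. Values were raised to a floor at their 40th percentile, 34.96, then log2-transformed, and each gene was read by the probe set with the highest mean log2 signal. Where both arrays of a comparison were under the floor no fold was computed, and where 1 was the fold is a bound. The number of arrays limits the precision.

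The members, gene lists, thresholds and alternatives were chosen with earlier results of these data known. All 40 measured members are described. Of the other replication lists, genes at least 2-fold apart in a comparison are named, at most 4 per list. Cdkn2d, beyond that limit, is named to complete a count and was chosen after its value was seen. Of the mitosis and G2/M list only Ccnb2, with the largest 12 h fold, and Cdc25c, a bound, are named, and the other called genes are counted. Alternatives were deposited values, quantile normalization, median scaling, a floor at the 20th or 60th percentile, a pseudocount, the median over probe sets, probe sets without a suffix, and folds of 1.5 and 3. Promoter letters were searched with Python 3.11.15.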

Additional observations from a re-analysis of the deposited data

Results flagged for a closer look

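Probe set 1424991_s_at, which the annotation gives to both Tyms and the pseudogene Tyms-ps and which was therefore left out, had a signal of 338.1 at 0 h, 286 at 2 h and 274.1 at 12 h. It lay above the floor, unlike the 3 probe sets given to Tyms alone, with log2 differences of -0.24 at 2 h and -0.30 at 12 h.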

How the results depend on the processing

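The median log2 difference of the members stayed below 0 for 2 h and for 12 h against 0 h in the 8 settings of scaling, floor and probe set, and relative to all genes it ran from -0.25 to -0.18 at 2 h and from -0.28 to -0.21 at 12 h. The number of members at least 2-fold lower at 2 h was 5 as reported, against 1.69% of all genes. It was 1 with median scaling (0.87% of all genes), 3 with quantile normalization (1.02%) and 2 with a pseudocount (0.52%). A floor at the 20th percentile gave 5 of 41 (4.72%), and a floor at the 60th gave 4 (0.88%). The median over probe sets gave 3 (1.34%), a fold of 1.5 gave 7 (9.64%) and a fold of 3 gave 0 (0.15%). Without suffixed probe sets it was 1 of 34 (1.72%). Ung and Cdc6 have suffixed probe sets alone and were not read in that setting. At 12 h against 0 h the number lower was 1 as reported (2.4% of all genes), 8 at 1.5-fold (10.3%) and 0 at 3-fold (0.31%). For 12 h against 2 h, the number of members at least 2-fold higher was 2 as reported (2.65% of all genes). A floor at the 20th percentile gave 3 of 41 (5.58%), and a floor at the 60th gave 1 (2.15%). Without suffixed probe sets it was 1 of 34 (2.73%). A fold of 1.5 gave 4 (10.2%) and a fold of 3 gave 1 (0.65%). None was lower as reported (1.98% of all genes), and 2 were lower at 1.5-fold (6.45%). Over all genes, the 142 lower at 2 h were 73 with median scaling, 86 under quantile normalization, 44 with a pseudocount, 510 with a floor at the 20th percentile and 52 with one at the 60th. Of the called differences, Tk1 at 12 h ran from -1.18 to -1.09, Ccne2 for 12 h against 2 h from 1.01 to 1.22, Cdc6 for 12 h against 2 h from 0.93, with the floor at the 60th percentile, to 1.77, Cdc6 at 2 h from -1.52 to -0.68, Cdt1 from -1.18 to -0.12, Rpa2 from -1.07 to -0.71, Ccne2 from -1.04 to -0.86 and Ung from -1.03 to -0.85. None turned sign. Of 643 values of single members under these settings, 19 shifted beyond the spread between probe sets. The cause was not tested. No paired analysis was possible because there is 1 array per time.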
